A study of Mus musculus with 2 samples.

Results

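The genes described are those for the respiratory chain and ATP synthase that are encoded in the nucleus, measured as RNA in single cells of mouse thymus. Members were chosen by name alone, as genes whose symbol starts with Ndufa, Ndufb, Ndufc, Ndufs, Ndufv, Sdh, Uqcr, Cox4 to Cox8 or Atp5, without names marked as pseudogenes by "-ps" and with at least 100 UMIs (unique molecular identifiers, each the tag of 1 captured RNA molecule) over all cells. Of 20282 genes in the matrix, 97 had such a name and 93 reached the minimum. The 4 just below it were Cox6c2 with 93 UMIs, Cox4i2 with 30, Ndufs6b with 22 and Ndufa11b with 10, and the lowest gene inside it was Cox7a1 with 274. Member totals otherwise ran to 72061 UMIs for Cox4i1, with a median of 17600. By complex, 45 belong to complex I (7 core subunits, 29 accessory subunits, 8 assembly factors and 1 related copy of a subunit gene), 8 to complex II, 8 to complex III, 15 to complex IV and 17 to ATP synthase, here called complex V. The related copy, Ndufb4c, is annotated as a processed pseudogene but passed the name rule.

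Complexes I and II pass electrons from NADH and succinate to ubiquinone, complex III passes them on to cytochrome c, complex IV hands them to oxygen, and complex V uses the resulting proton gradient to make ATP. Most subunits are encoded in the nucleus and imported into mitochondria, while a small set of core subunits of complexes I, III, IV and V is encoded by mitochondrial DNA. In the thymus, small resting CD4+CD8+ (double-positive) thymocytes make up most cells, larger dividing blasts come before them, and cells that pass selection become CD4 or CD8 single-positive thymocytes.

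The study asked how loss of Cdc42, an organizer of the actin cytoskeleton, alters T cells and their development. Thymus cells from 5 Cdc42 f/f mice were pooled into 1 library (WT) and those from 5 Cdc42 f/f CD4Cre littermates into another (KO), all at 6 weeks of age, and both were sequenced by droplet single-cell RNA-seq. Both genotypes carry the loxP-flanked Cdc42 alleles, and CD4Cre is driven by Cd4 regulatory sequences, so that deletion can start only in cells that express Cd4, from about the double-positive stage. With 1 pooled library per genotype there is no replicate, so no test between genotypes was possible. A difference between genotypes cannot be told apart from one between 2 library preparations, and every interval given covers counting error only.

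The WT library held 6115 cells with a median of 3192 UMIs, and the KO library 7568 cells with a median of 3401. Cells were grouped by the 19 clusters the authors deposited, each group being called here by the gene used to pick it. The Rag1 group (5 clusters, 3636 WT and 4641 KO cells) had the highest summed level of the double-positive marker list, at 13180 CPM (UMIs per 1000000 UMIs of the same cells) in WT and 13200 in KO. The cycling group held 6 clusters with 736 WT and 771 KO cells, and a proliferation marker list at 14300 and 13820 CPM. The Cd5 group (2 clusters, 535 and 843 cells) and the Itm2a cluster (479 and 316 cells) had the highest levels of the list for signalled and single-positive cells, and the Ms4a4b cluster (332 and 396 cells) of the mature single-positive list. These lists hold the genes that picked the groups: Rag1, Cd5, Itm2a, Ms4a4b, and for cycling Top2a, H1f5, Hmgb2 and Cenpf. Their levels are therefore no independent support for the cell types. Cdc42 RNA was at 397.7 CPM in the WT and 356.5 in the KO library over all cells, but at 446.6 and 581.5 in the Ms4a4b cluster. 3′ counts need not show the loss of a floxed exon, so WT and KO below mean the libraries as labelled. The sample titles name cdc42, but the cell names of both libraries carry Cdc45 in its place, and they were matched by WT and KO. The libraries shared 17 cell barcodes. Haemoglobin Hbb-bs was at 38.3 CPM in the WT and 0.527 in the KO library, and leaving out cells with a haemoglobin UMI left every count of members in the genotype comparisons within 1.5 times its value.

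Sequences upstream of members were looked at for motifs of factors that are textbook regulators of these genes, the nuclear respiratory factor NRF1, the ETS family (which includes GABP) and YY1. RefSeq promoters of build GRCm38.p6, from 250 bases before to 50 after the gene start, were found for 78 of the 93 members and for 27025 genes in all. The NRF1 motif, searched as its core GCATGCGC on either strand, was in 12 members (15.4%) against 3.05% of all genes. The ETS motif CCGGAAG, on either strand, was in 22 members (28.2%) against 9.93%, and the YY1 motif AAGATGGC in 11 (14.1%) against 3.19%. The 27025 genes were not limited to those expressed in these cells, as the members were, so these shares are not matched for expression. The ETS and YY1 motifs can share the letters AAG, so 1 stretch can count for both. The 12 members with the NRF1 core were Ndufa6, Ndufa8, Ndufa11, Ndufaf4, Ndufaf5, Sdhb, Uqcr11, Uqcrc1, Cox6a1, Atp5g2, Atp5k and Atp5l. The 4 below were chosen as examples, and a level or a ratio of each is given later. They are printed as 160 bases each, from 130 before to 30 after the gene start. They cover chr4:24897953-24898112 on the plus strand for Ndufaf4, chr5:108434370-108434529 on the minus strand for Atp5k, chr15:102671018-102671177 on the minus strand for Atp5g2 and chr17:56717632-56717791 on the plus strand for Ndufa11. Capitals mark the NRF1 core on either strand, which runs into its own reverse complement at the first match of each, and in Atp5k also the ETS motif as it reads on the other strand.
Ndufaf4: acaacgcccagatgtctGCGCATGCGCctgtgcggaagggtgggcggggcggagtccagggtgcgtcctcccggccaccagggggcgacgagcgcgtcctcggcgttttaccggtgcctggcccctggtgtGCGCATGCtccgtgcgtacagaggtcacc
Atp5k: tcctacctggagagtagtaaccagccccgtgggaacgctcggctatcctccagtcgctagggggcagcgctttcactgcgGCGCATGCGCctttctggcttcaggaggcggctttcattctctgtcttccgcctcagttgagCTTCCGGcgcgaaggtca
Atp5g2: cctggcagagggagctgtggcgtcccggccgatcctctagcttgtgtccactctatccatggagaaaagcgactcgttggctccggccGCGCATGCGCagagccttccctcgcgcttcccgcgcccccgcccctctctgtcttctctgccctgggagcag
Ndufa11: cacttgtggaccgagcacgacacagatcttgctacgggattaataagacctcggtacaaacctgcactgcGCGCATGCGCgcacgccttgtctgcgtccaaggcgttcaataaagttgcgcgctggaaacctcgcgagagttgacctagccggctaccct
The first base of the first NRF1 match lay 113 bases before the start in Ndufaf4, 50 in Atp5k, 42 in Atp5g2 and 60 in Ndufa11, and Ndufaf4 held another match near its start. A match describes these letters in this window and not a bound site, and the 4 genes did not share one pattern of RNA level: Ndufaf4 was highest in the Itm2a cluster among the larger clusters, whereas Atp5k was highest in cycling cells.

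Members took 2.70% of all UMIs in the WT library and 2.68% in the KO library, a median of 76 and 80 member UMIs per cell. Their summed level was highest in the cycling group, at 33102 CPM in WT and 33155 in KO. It was 23545 and 23825 in the Rag1 group, 25324 and 25494 in the Cd5 group, 25704 and 26130 in the Itm2a cluster, and 21995 and 20057 in the Ms4a4b cluster. The order cycling, Itm2a, Cd5, Rag1, Ms4a4b was therefore the same in both libraries, and the Itm2a and Cd5 groups were the closest pair. Within the Rag1 group the 5 clusters were not equal: clusters 0, 1 and 2 lay between 22325 and 23123 CPM, cluster 3 at 24856 and 24778, and cluster 4 at 25667 and 26312. The Myl10 cluster was near the Rag1 level, at 23393 and 23581.

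**Figure D1:**
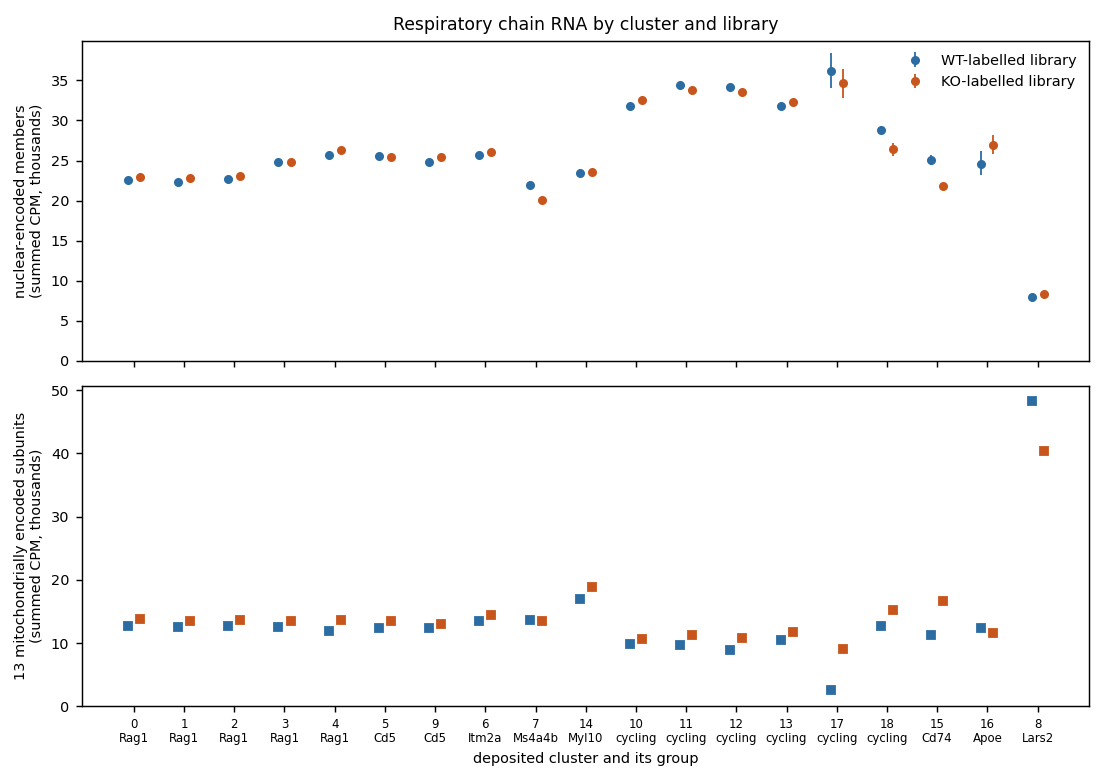
Summed level of the 93 members and of the 13 mitochondrially encoded subunits, in CPM, in each of the 19 deposited clusters and each library; bars on the points are exact 95% Poisson intervals, which cover counting error only. The 4 larger cycling clusters lie between 31773 and 34487 CPM for the members, above all Rag1 clusters, and cluster 8 lies lowest for the members and highest for the mitochondrially encoded subunits.

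One cluster stood far below the others. In cluster 8, picked by Lars2, members summed to 7932 CPM in WT and 8338 in KO, which was 0.337 and 0.350 times the Rag1 level. There 77 of the 93 members had their lowest level of all 19 clusters, a count that was not made for genes in general. Low levels there were not particular to members: ribosomal protein genes summed to 29896 and 28394 CPM, against 141040 and 133266 in the Rag1 group. The 13 mitochondrially encoded subunits went the other way, at 48334 and 40404 CPM against 12478 and 13627 in the Rag1 group. Cells of this cluster had a median of 955.5 and 1199.5 UMIs and 18.6% and 15.7% of UMIs from mitochondrial genes, against 6.08% and 6.01% in the Rag1 group, so low depth and a high mitochondrial share moved with the low member level, and their part in it was not tested. In the Cd74 cluster members stood at 25073 CPM in WT and 21845 in KO, while the B cell marker list stood at 3664 and 38510 CPM, so the 2 libraries did not hold the same mix of cells there and no further comparison was made. The Apoe cluster, where macrophage markers (Apoe itself among them) summed to 39850 and 33050 CPM, had members at 24620 and 26974 CPM from only 30 and 49 cells.

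Most members followed a similar profile over the 19 clusters, though less closely with the Lars2 cluster left out. The correlation was not computed for genes in general. Over the 19 clusters, both libraries summed, the log2 level of a member correlated with that of the other members summed at a median Pearson r of 0.851 (63 of 93 above 0.8), and at 0.648 without the Lars2 cluster; all points share the same cells and depth, so this is a description. Closest to the common profile were Ndufb8 (r = 0.983), an accessory subunit of complex I, Cox6c (0.975), a small subunit of complex IV, and Atp5o.1 (0.974), the stalk subunit OSCP of ATP synthase. Least like it were Ndufs1 (-0.199), the largest core subunit of complex I, Sdhaf2 (0.068), which helps to attach FAD to the succinate dehydrogenase flavoprotein, and Cox6b2 (0.108), a complex IV isoform known from testis. This ranking depended on the Lars2 cluster. Without it Ndufs1 stood at 0.191, Sdhaf2 at -0.219 and Cox6b2 at 0.358, and the lowest were Sdhaf1 (-0.626), Cox7a2l (-0.537) and Ndufa13 (-0.349). Among the 14 clusters with at least 500000 UMIs in each library, 77 of 93 members had their highest level in one of the 4 cycling clusters: 27 in cluster 12, 18 each in clusters 11 and 13, and 14 in cluster 10. The same count was not made for genes in general, so it does not show a trait particular to members.

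**Figure D2:**
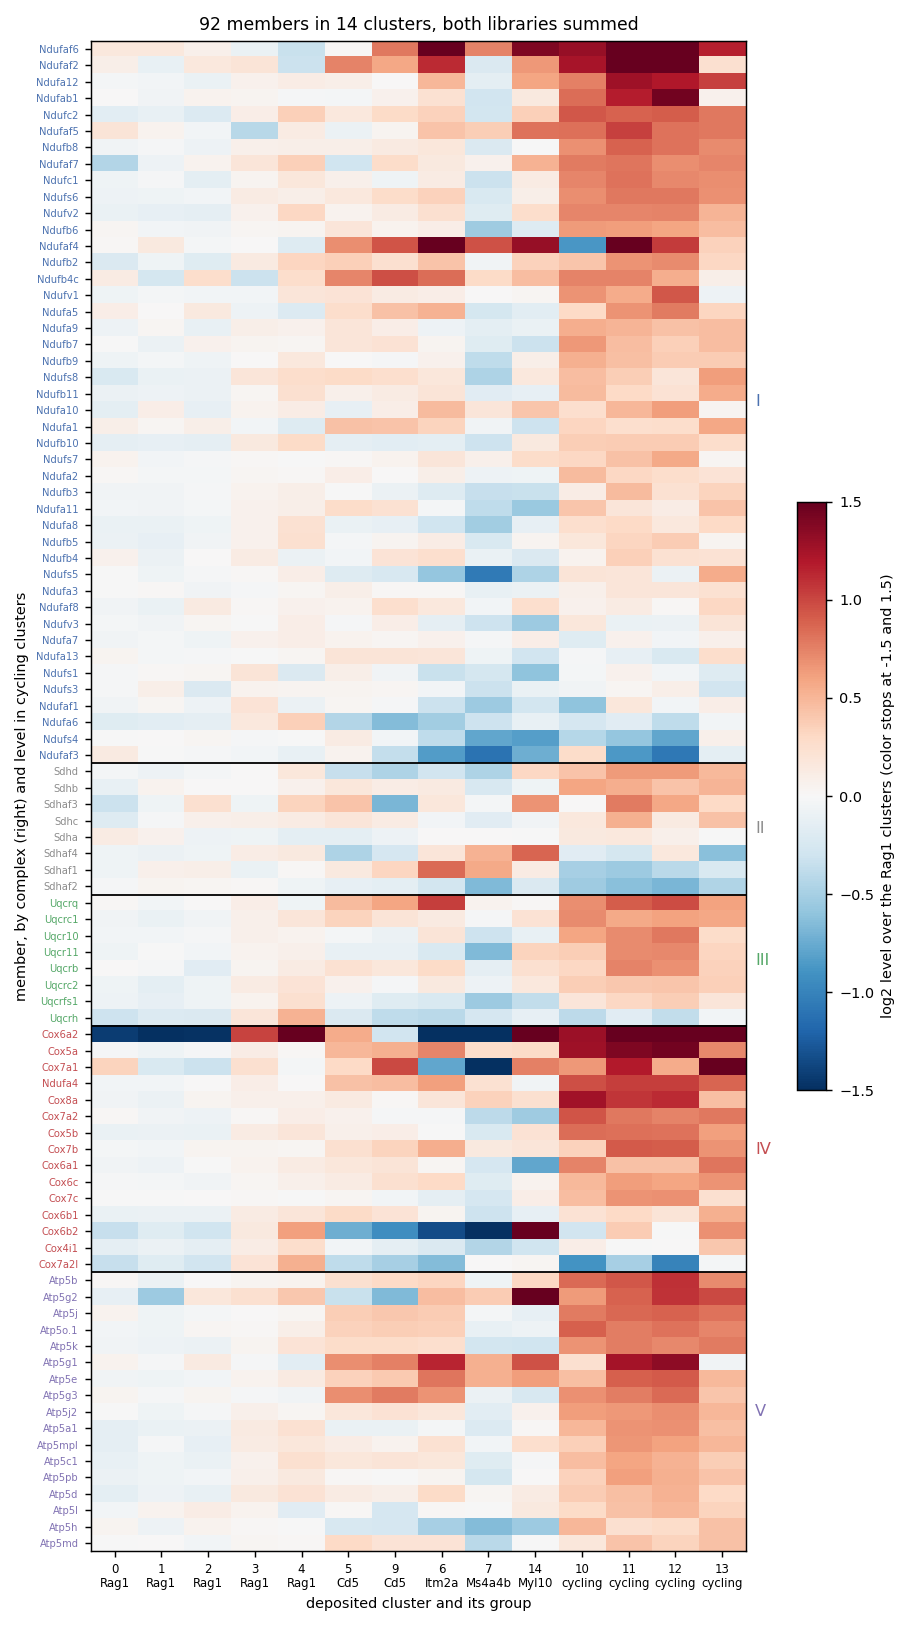
Heatmap of 92 of the 93 members, ordered by complex, in the 14 larger clusters, as log2 of the CPM over that in the Rag1 group with both libraries summed; the colour scale stops at 1.5 in either direction. Most members are above the Rag1 level in the cycling clusters, with Cox7a2l, Ndufs4 and Sdhaf1 among the exceptions.

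The first comparison set cycling cells against the Rag1 group within each library, and asked which members differ between these groups. Rag1 RNA, by which the Rag1 group was picked, was at 2161 to 3165 CPM in its clusters. In the cycling clusters it was at 49.87 to 1385 CPM, both libraries summed. The groups may thus differ in developmental stage as well as in division, and the part of each was not tested. A gene was counted when it had at least 200 UMIs in the 2 groups together, and called higher or lower when the larger CPM exceeded the smaller by at least 25%. In WT, 61 of 89 measured members were higher and 6 lower, where 26.5% of all 8044 genes measured were higher and 49.8% lower. In KO, 59 of 92 were higher and 5 lower, where 26.1% of all genes were higher and 50.9% lower. The median log2 ratio of members was 0.48 in WT and 0.51 in KO, beside -0.32 and -0.34 for all genes, and 83 of 89 and 88 of 92 members lay above the all-gene median. Summed, members were 1.41 times the Rag1 level in WT (log2 0.49, 95% interval 0.48 to 0.50) and 1.39 times in KO. Cycling cells were also deeper, at a median of 11882 and 14537 UMIs against 2823 and 3097. With cells thinned to 1000 UMIs, and shallower cells left out, the median ratio of members was 0.48 in WT and 0.45 in KO. Thinning keeps the expected shares of each cell, so it cannot show what part depth had in the ratios. Most calls of lower members rested on scaling by total UMIs: with TMM factors, DESeq2 size factors or ratios relative to the all-gene median, 76 to 79 members were higher in WT and 80 in KO, and the lower ones were Cox7a2l alone in WT and Sdhaf2 alone in KO.

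The complexes did not differ equally from the Rag1 group. Complex V was 1.55 times the Rag1 level in WT and 1.54 times in KO when summed, and complex IV 1.5 and 1.48 times. Complex I differed by log2 0.35 and 0.33. Complex III stood at 1.24 and 1.27 times and complex II at 1.18 times in both. All 17 members of complex V were higher in WT and 15 in KO. In WT, higher members numbered 25 of 43 in complex I, 4 of 8 in complex II, 6 of 8 in complex III and 9 of 13 in complex IV. The mitochondrially encoded subunits of the same complexes had no higher gene and 9 lower among 12 measured in WT (median log2 -0.48), and 1 higher and 10 lower in KO (-0.46). Beside these counts, 26.5% of all genes were higher and 49.8% lower in WT, and 26.1% and 50.9% in KO. The ratio of the summed members to the summed mitochondrially encoded subunits was 3.42 and 3.01 in cycling cells, against 1.89 and 1.75 in the Rag1 group.

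**Figure D3:**
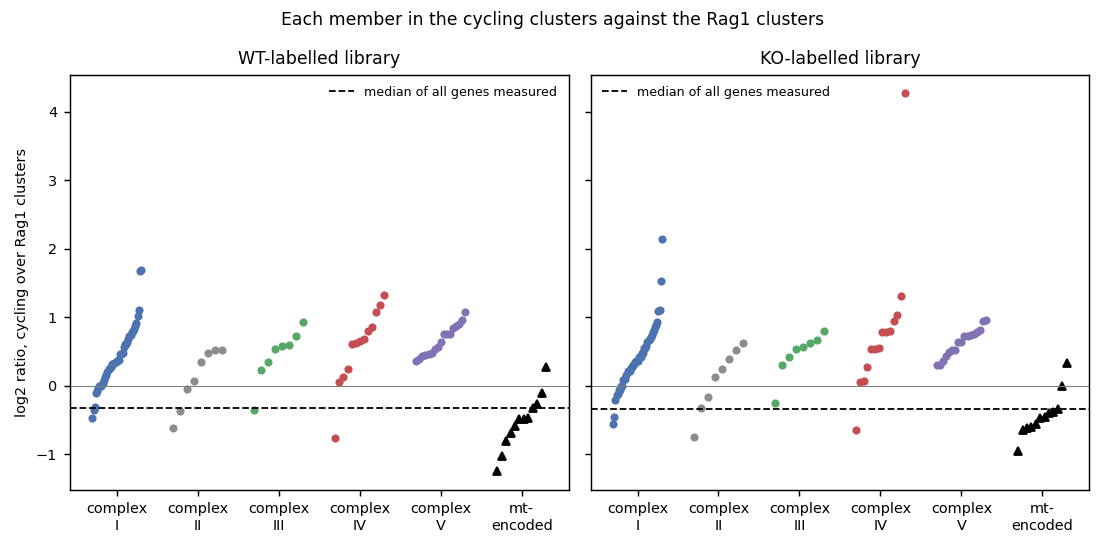
Log2 ratio of CPM in cycling over Rag1 cells for each member by complex, and for the mitochondrially encoded subunits, in the WT panel and the KO panel; the dashed line is the median of all genes, -0.32 in WT and -0.34 in KO. Most members lie above both 0 and the dashed line, all 17 of complex V in WT are called higher, and the mitochondrially encoded subunits lie mostly below 0.

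In complex I, core subunits that carry the electron path did not all differ alike. Ndufv1, which binds NADH, was at 61.7 CPM in Rag1 and 103.6 in cycling cells of WT (log2 0.75, interval 0.61 to 0.89) and at 67.3 and 104.4 in KO (0.63). Ndufs1, with several iron-sulfur clusters, was at 51.5 and 48.9 CPM in WT and 51.0 and 50.9 in KO. Its levels in Rag1 and cycling cells thus lay within 25% of each other in both libraries. Ndufab1, the mitochondrial acyl carrier protein that is also a complex I subunit, was at 137.4 and 294.7 CPM in WT (log2 1.10, 1.01 to 1.19) and 133.2 and 283.7 in KO (1.09). The accessory subunit Ndufs4 was among the few lower members, at 306.9 and 221.4 CPM in WT (log2 -0.47, -0.55 to -0.39) and 318.0 and 217.0 in KO (-0.55), though at -0.12 and -0.19 with TMM factors it was short of the 25% difference.

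The assembly factors, which build the complexes without being part of them, lay near both ends of the range. Ndufaf2, a late-acting complex I factor, had the highest ratio of all measured members in WT, at 20.7 CPM in Rag1 and 66.9 in cycling cells (log2 1.69, 1.47 to 1.92), with 22.8 and 65.6 in KO (1.53). Ndufaf6, an early-acting complex I factor, was at 5.52 and 17.8 CPM in WT (1.68) and 4.82 and 21.4 in KO (2.15). Ndufaf3 was lower instead, at 84.1 and 65.6 CPM in WT (-0.36) and 89.3 and 65.3 in KO (-0.45). Of the complex II factors, Sdhaf1, which serves the iron-sulfur subunit, was at 40.8 and 26.6 CPM in WT (-0.62, -0.84 to -0.40) and 38.7 and 31.0 in KO (-0.32), and Sdhaf2 at 54.5 and 42.1 in WT (-0.37) and 62.4 and 37.3 in KO (-0.74). With TMM factors Ndufaf3 stood at -0.006 in WT and -0.095 in KO, Sdhaf1 at -0.27 and 0.035, and Sdhaf2 at -0.02 and -0.38, of which the last alone was past the 25% difference. Over all assembly factors among the members, 5 of 11 were higher and 3 lower in WT, and 6 of 12 and 3 in KO. Of all genes, 26.5% were higher and 49.8% lower in WT, and 26.1% and 50.9% in KO.

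Complexes II and III held subunits near the Rag1 level beside higher ones. The flavoprotein Sdha was at 113.2 and 119.1 CPM in WT (log2 0.07) and 122.7 and 134.4 in KO (0.13), while the iron-sulfur subunit Sdhb was at 156.1 and 223.4 in WT (0.52) and 153.6 and 219.7 in KO (0.52). The membrane anchors Sdhc and Sdhd had ratios of 0.35 and 0.48 in WT and 0.24 and 0.62 in KO. In complex III the core protein Uqcrc1 had ratios of 0.54 and 0.67 in WT and KO, and the Rieske iron-sulfur protein Uqcrfs1 of 0.24 and 0.30. Uqcrh, the hinge protein that helps cytochrome c to dock, was lower, at 995.0 and 782.0 CPM in WT (-0.35, -0.39 to -0.31) and 878.8 and 735.6 in KO (-0.26, short of the 25% difference). With TMM factors its WT ratio was 0.003.

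In complex IV the largest ratios among the WT subunits were those of Cox5a and Cox8a. Cox5a was at 283.4 CPM in Rag1 and 710.2 in cycling cells of WT (log2 1.32, 1.26 to 1.39) and 279.9 and 694.6 in KO (1.31), and Cox8a at 527.8 and 1190 in WT (1.17) and 540.1 and 1112 in KO (1.04). Ndufa4, named for complex I but a subunit of complex IV, was at 411.1 and 868.2 CPM in WT (1.08) and 430.1 and 829.4 in KO (0.95). Cox7a2 (0.85 and 0.79) and Cox6a1 (0.61 and 0.54) were also higher in both libraries. Cox4i1, the member with most UMIs, differed little, at 1142 and 1190 CPM in WT (0.06) and 1067 and 1117 in KO (0.07). Cox7a2l, which links complexes III and IV into supercomplexes, had the lowest ratio of all measured members in WT, at 597.8 and 352.0 CPM (-0.76, -0.82 to -0.71), with 515.1 and 328.6 in KO (-0.65). Thus Cox7a2 and its relative Cox7a2l stood on opposite sides of the Rag1 level in both libraries.

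In ATP synthase the catalytic beta subunit Atp5b was at 548.5 and 1030 CPM in WT (log2 0.91, 0.86 to 0.95) and 546.2 and 1058 in KO (0.95), and the alpha subunit Atp5a1 at 421.3 and 613.7 in WT (0.54) and 405.9 and 631.8 in KO (0.64). The genes Atp5g1, Atp5g2 and Atp5g3 all encode the same mature subunit c of the rotor ring. Atp5g3 had the most UMIs in Rag1 cells of WT (310.5 CPM), followed by Atp5g1 (214.2) and, far below, Atp5g2 (7.91). 3′ UMI counts need no scaling by length, but capture and mapping were not compared between the genes, so this is an order of counts. In cycling cells of WT they were at 524.8, 417.5 and 16.8 CPM, with ratios of 0.76, 0.96 and 1.08, and in KO the ratios were 0.72, 0.95 and 0.74. The order of the 3 genes was the same in cycling as in Rag1 cells.

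Cycling clusters differed among themselves. Clusters 11 and 12 had more Pcna RNA, a DNA replication gene (682.7 and 1100 CPM), than cluster 13 (71.6), whereas Cenpf, of late cycle and mitosis, was at 1129 CPM in cluster 10 and 1545 in cluster 13 against 210.4 and 232.0 in clusters 11 and 12. This division into clusters 11 and 12 against 10 and 13 was chosen after the values were seen, and cluster 10 also had Pcna at 654.2 CPM. In WT, 16 of 86 measured members were higher in clusters 11 and 12 and 2 lower, where 21.9% of all genes were higher and 37.3% lower. In KO, 12 of 88 were higher and 6 lower, where 21.6% and 37.4% of all genes were. Ndufaf4, an early assembly factor of complex I, was at 52.1 CPM in clusters 11 and 12 of WT and 13.8 in clusters 10 and 13 (log2 1.90), and at 62.1 and 18.2 in KO (1.77). Atp5g1 was at 550.4 and 230.5 CPM in WT (1.26) and 528.0 and 260.8 in KO (1.02). Ndufaf3, another complex I factor, had the opposite order, at 45.3 and 96.1 CPM in WT (-1.08) and a ratio of -1.21 in KO. The high level of Atp5g1 in cycling cells was thus mostly in clusters 11 and 12, in both libraries.

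**Figure D4:**
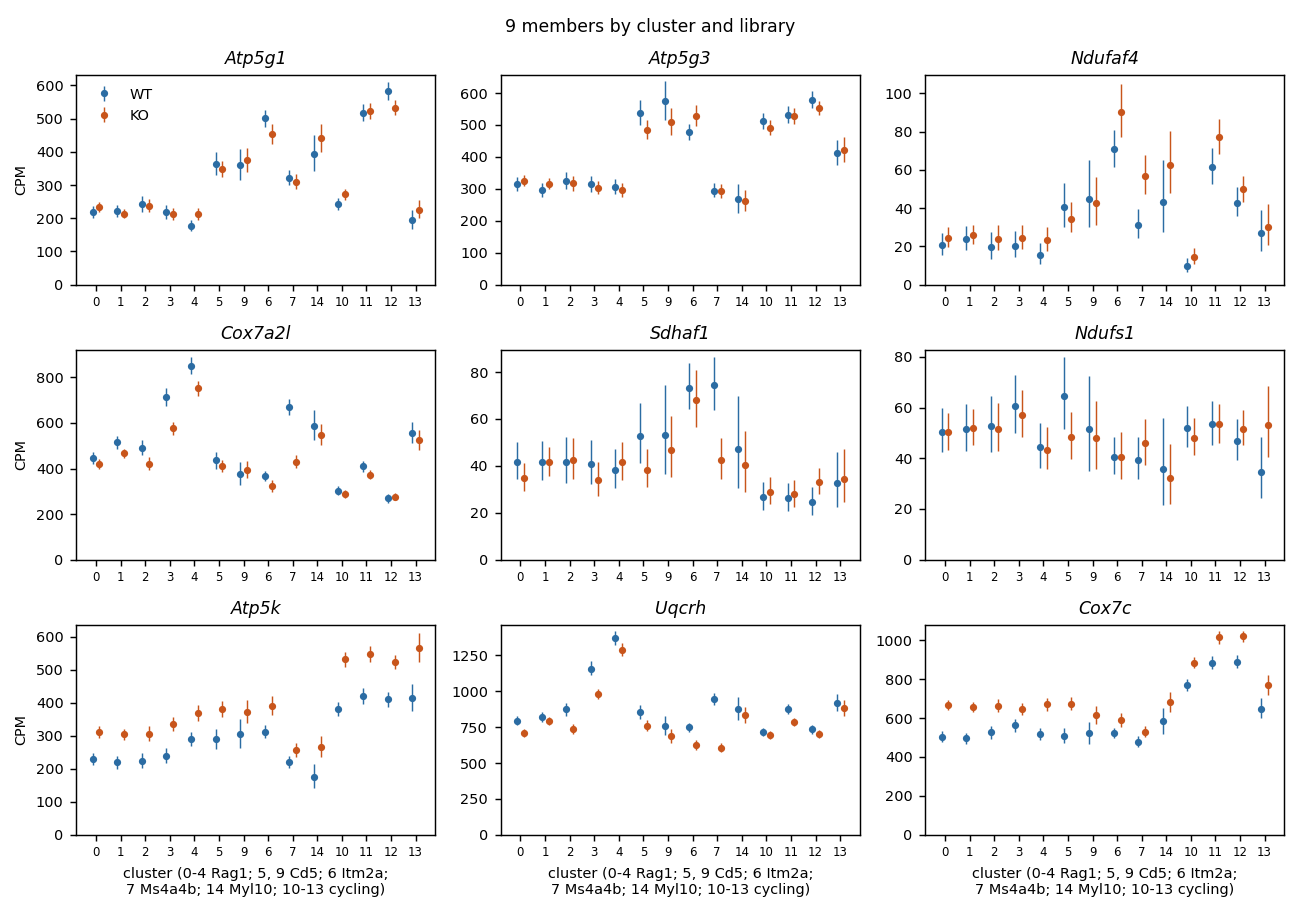
Level in CPM of Atp5g1, Atp5g3, Ndufaf4, Cox7a2l, Sdhaf1, Ndufs1, Atp5k, Uqcrh and Cox7c in the 14 larger clusters, 1 point per cluster and library. Ndufaf4 stands highest in cluster 6, the Itm2a cluster, at 70.8 and 90.3 CPM, Uqcrh highest in cluster 4 at 1373 and 1290 CPM, and Atp5k lies higher in KO than in WT in every cluster shown.

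The second comparison set the Itm2a cluster, with the markers of signalled and single-positive cells, against the Rag1 group. In WT, 22 of 86 measured members were higher and 11 lower, where 20.3% of all genes were higher and 43.4% lower, and in KO 21 of 86 were higher and 9 lower, where 23.0% and 35.6% were. The share of higher members was therefore close to that of all genes, while fewer members than genes in general were lower. The median log2 ratio of members was 0.10 in WT and 0.14 in KO, beside -0.23 and -0.10 for all genes. Summed complex V stood at 1.19 and 1.2 times the Rag1 level, and the other complexes between 1.04 and 1.07 times. The mitochondrially encoded subunits summed to 1.08 and 1.06 times.

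A few members stood well above the rest in that cluster. Ndufaf4 had the highest ratio in WT, at 20.1 CPM in Rag1 and 70.8 in Itm2a cells (log2 1.82, 1.54 to 2.10), with 24.5 and 90.3 in KO (1.88). Atp5g1 was at 214.2 and 501.0 CPM in WT (1.23, 1.13 to 1.32) and 221.6 and 453.8 in KO (1.03). Its CPM was above that of Atp5g3 in the Itm2a cells of WT (477.1) but not of KO (527.7). Uqcrq, a small complex III subunit, was at 259.7 and 564.6 CPM in WT (1.12) and 290.7 and 581.9 in KO (1.00). Ndufaf2 had ratios of 1.05 and 1.27. Among the lowest were Cox6b2, from 218 UMIs in Rag1 and 16 in Itm2a cells of WT (20.1 and 5.24 CPM, -1.90, -2.77 to -1.20), and Ndufaf3 at 84.1 and 45.5 CPM in WT (-0.88) and 89.3 and 54.2 in KO (-0.71). Cox7a2l was at 365.7 CPM in Itm2a cells of WT (-0.71) and 322.6 in KO (-0.67), and Ndufs5, an accessory subunit of complex I, at 156.6 CPM in WT (-0.66). The complex II factor Sdhaf1, low in cycling cells, was high here, at 73.4 CPM in WT (0.85) and 68.0 in KO (0.82).

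The third comparison set the Ms4a4b cluster of mature single-positive cells against the Rag1 group. In WT, 7 of 85 measured members were higher and 18 lower, where 14.7% of all genes were higher and 59.0% lower, and in KO 3 of 86 were higher and 34 lower, where 19.4% and 43.1% were. The median log2 ratio of members was -0.15 in WT and -0.27 in KO, beside -0.45 and -0.23 for all genes. The WT median changed sign with other scalings, to 0.15 with TMM factors, 0.26 with DESeq2 size factors and 0.13 with totals that leave out ribosomal protein and mitochondrially encoded genes, while the KO median was below 0 under all of them. Ribosomal protein genes took 305068 CPM of WT and 217161 of KO in this cluster, against 141040 and 133266 in the Rag1 group. The part of that difference in the member ratios was tested only through the scalings just given. Members at the low end were Cox6b2 (-2.16 in WT and -2.44 in KO), Ndufaf3 (-1.23 and -0.97), Ndufs5 at 248.3 CPM in Rag1 and 112.9 in Ms4a4b cells of WT (-1.13, with -0.98 in KO) and Ndufs4 at 306.9 and 160.6 (-0.93, with -0.64 in KO). At the high end were Sdhaf1 and Atp5e, the epsilon subunit of the F1 part of ATP synthase. Sdhaf1 was at 40.8 and 74.3 CPM in WT (0.87, 0.60 to 1.12) but 38.7 and 42.4 in KO (0.14). Atp5e was at 521.0 and 879.5 CPM in WT (0.76) and 564.9 and 700.6 in KO (0.31). Ndufaf4 was higher in both, at 0.65 and 1.22, and so was Sdhaf4, a complex II factor, at 0.63 and 0.46. In KO, Atp5h, the stalk subunit d, joined the lowest members at 1031 and 612.3 CPM (-0.75).

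The last comparison set KO against WT within each group. In the Rag1 group, 2 of 88 measured members were higher in KO and none lower, where 6.28% of all genes were higher and 1.84% lower, and no test was possible with 1 library each. In the Cd5 group 3 of 81 were higher and 2 lower (6.98% and 2.8% of all genes). In the cycling group 5 of 92 were higher and none lower (4.85% and 1.91%). Median log2 ratios of members were 0.03 in Rag1, -0.02 in Cd5 and -0.01 in cycling cells, beside all-gene medians of 0.04, 0.02 and 0.03. The members' sums differed between libraries by a log2 ratio of 0.02 in Rag1, 0.01 in Cd5 and 0.00 in cycling cells (0.002, interval -0.004 to 0.009). In these 3 groups the share of members past the 25% difference was close to or below that of all genes.

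The members past the 25% difference there were few and partly the same. Atp5k, the e subunit of ATP synthase with a part in its dimers, was at 240.4 CPM in WT and 322.4 in KO in Rag1 cells (log2 0.42, 0.35 to 0.49), 294.3 and 377.7 in Cd5 cells (0.36) and 405.1 and 535.1 in cycling cells (0.40). Cox7c, a small complex IV subunit, was at 518.2 and 659.9 CPM in Rag1 (0.35) and 513.8 and 653.4 in Cd5 cells (0.35), and at 820.0 and 955.0 in cycling cells (0.22, short of the 25% difference). Others were past that difference in 1 of these 3 groups: Sdhd higher in Cd5 cells (58.7 and 73.7 CPM, 0.33), Sdhaf1 (52.9 and 41.2 CPM, -0.36, -0.74 to 0.02) and Ndufs1 (60.2 and 48.2 CPM, -0.32, -0.67 to 0.04) lower in Cd5 cells with intervals that reach 0, and Ndufaf5 (0.39), Ndufaf4 (0.34) and Ndufa3 (0.34) higher in cycling cells. At the low end of the Rag1 group were Cox7a2l at 597.8 and 515.1 CPM (-0.22) and Uqcrh at 995.0 and 878.8 (-0.18), neither past that difference.

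Cox6a2, a complex IV isoform known from heart and skeletal muscle, had the largest ratio of the cycling group, at 5.45 CPM in WT and 16.9 in KO (log2 1.62, 1.21 to 2.08, from 57 and 218 UMIs). Most of its RNA came from a few cells. Cells with at least 5 UMIs of Siglech, a marker of plasmacytoid dendritic cells, numbered 7 in WT and 16 in KO, and held 247 of 292 Cox6a2 UMIs in WT (84.6%) and 330 of 377 in KO (87.5%). Cox6a2 was at 3448 and 1504 CPM in them, against 1.518 and 1.247 CPM in all other cells, and 1 KO cell of cluster 13 held 108 of its UMIs. Without these cells the cycling values were 2.11 and 1.56 CPM from 22 and 20 UMIs (-0.43, -1.38 to 0.51). This cell class was chosen after the values were seen, and such cells were deep, at a median of 9654 and 13444.5 UMIs against 3190.5 and 3396.5. The other isoforms outside the ubiquitous set were low: Cox7a1, known from heart and muscle, was at 2.85 and 3.58 CPM in Rag1 cells, and Cox6b2 at 20.1 and 20.3, with its highest level in the Myl10 cluster, at 77.9 CPM over both libraries.

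Some small differences between libraries had the same sign everywhere. Among the 14 clusters with at least 500000 UMIs in each library, 5 of 86 members (5.81%) were higher in KO in every cluster, where 1.63% of 6996 genes with at least 1000 UMIs were, and 2 (2.33%) were lower in every cluster, where 0.929% of genes were. This count was chosen after values were seen, and clusters of 1 library are not replicates. Members had a median of 17600 UMIs, far above that minimum, and the genes in general were not matched to them in level. The 5 were Atp5k (log2 0.22 to 0.59, median 0.42), the complex I accessory subunits Ndufa3 (0.11 to 0.50) and Ndufa1 (0.09 to 0.41), Cox7c (0.15 to 0.41) and Uqcr11, a small complex III subunit (0.01 to 0.29). The 2 lower ones were Uqcrh (-0.64 to -0.05) and Ndufa12, a complex I accessory subunit (-0.65 to -0.02). Of the mitochondrially encoded subunits, mt-Nd3 of complex I had a KO over WT log2 ratio of 1.2 in Rag1, 1.19 in cycling and 1.22 in Ms4a4b cells.

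**Figure D5:**
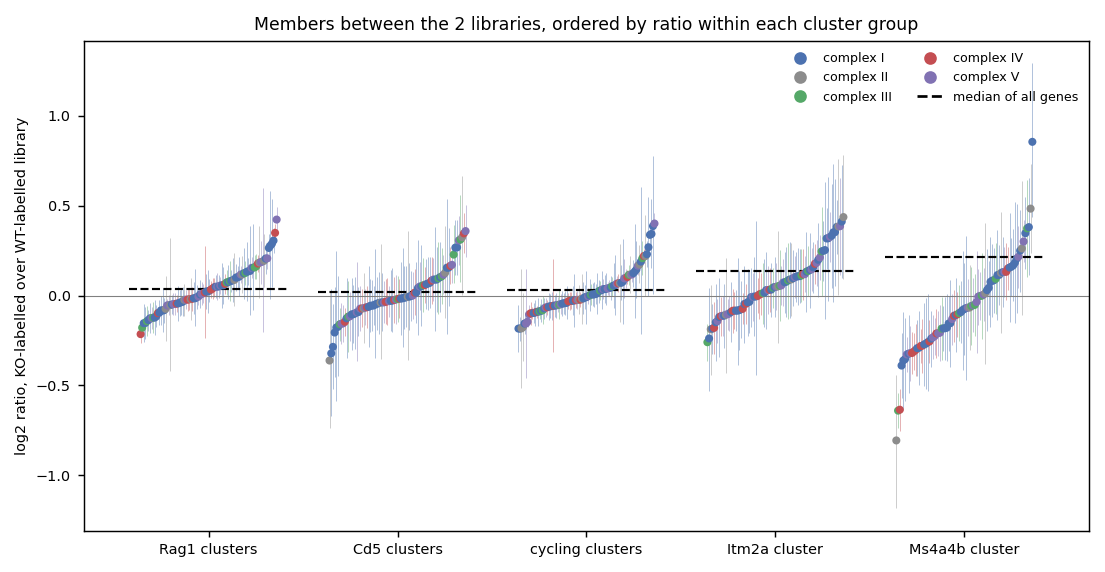
Log2 ratio of CPM in KO over WT for each measured member in the Rag1, Cd5, cycling, Itm2a and Ms4a4b groups, with exact 95% intervals for counting error; the dashed line is the median of all genes, and Cox6a2 is not drawn. Members centre near 0 in Rag1, Cd5 and cycling cells, and in the Ms4a4b cluster 70 of 79 lie below the dashed line at 0.21.

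In the Itm2a cluster, 9 of 82 measured members were higher in KO and none lower, where 20.6% of all genes were higher and 5.92% lower. The 9 were Sdhc (51.4 CPM in WT and 69.6 in KO, log2 0.44), Ndufv1 (61.9 and 82.4, 0.41), Atp5l (84.2 and 110.0, 0.39), Sdhaf2, Ndufa3, Ndufaf4, Ndufaf2, Atp5k and Ndufs3, the last 6 between 0.33 and 0.39. These counts depended on scaling by total UMIs: none were higher and 6 lower with TMM factors, none and 5 with DESeq2 size factors, 3 and 4 with cells thinned to 1000 UMIs and 3 and 2 with the finer deposited clusterings. With TMM and DESeq2 factors the ratios of the 9 lay between 0.15 and 0.29. Each of these scalings shifts the ratios of all genes by the same amount. Values above 0 thus followed from picking the 9 by their ratio and are no separate support. Uqcrh had the lowest ratio, at 750.0 and 626.0 CPM (-0.26). The median of members was 0.05, beside 0.14 for all genes, and went below 0 with totals without ribosomal protein and mitochondrially encoded genes (-0.07), TMM factors (-0.13) and DESeq2 size factors (-0.10). Ribosomal protein genes were at 238531 CPM in WT and 174401 in KO in this cluster. The mature single-positive list was at 1746 CPM in WT and 1105 in KO, and the list for signalled and single-positive cells at 3418 and 4571. The mix of cells may thus differ between libraries here, and its part was not tested.

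In the Ms4a4b cluster member ratios between libraries ran from -0.81 to 0.86. Of 79 measured, 5 were higher in KO and 8 lower, where 37.5% of all genes were higher and 8.67% lower. The sum of members was at 21995 CPM in WT and 20057 in KO (log2 -0.13, -0.15 to -0.12), and the median of members was -0.08 beside 0.21 for all genes. Scaling decided how many members stood below 0 past that difference: 8 by total UMIs, 43 with TMM factors (median -0.33), 45 with DESeq2 size factors (-0.35) and 32 with totals without ribosomal protein and mitochondrially encoded genes (-0.25), where those 3 scalings moved the median of all genes to between -0.06 and 0.04. Read against the all-gene median, 34 were lower. With cells thinned to 1000 UMIs, 11 were lower and 3 higher. The median of members was below 0 under each of these. The cells were shallower in KO, at a median of 5032 UMIs against 6737.5, and ribosomal protein genes took fewer of the UMIs, with 66 of 81 lower in KO and none higher. The part of ribosomal protein genes was not tested beyond these settings. That of depth was not tested, since thinning keeps the expected shares of each cell. Marker lists differed too: the double-positive list was at 1384 CPM in WT and 1813 in KO, and the mature single-positive list at 5774 and 6321. A list for CD4-CD8- or gamma-delta T cells was at 179.5 and 337.0. The mix of cells may thus differ between libraries here, and its part was not tested.

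Complex IV stood lowest against the all-gene median there, with 12 of 12 measured members below it and a median of -0.27. Cox4i1 was at 886.3 CPM in WT and 729.2 in KO (log2 -0.28, -0.38 to -0.19), Cox8a at 751.1 and 604.8 (-0.31) and Cox6c at 573.3 and 459.3 (-0.32). Cox7a2 (-0.30) and Ndufa4 (-0.26) were near them, whereas Cox7c (0.15) and Cox6a1 (0.13) were above 0. Cox7a2l had the lowest ratio of complex IV, at 669.5 and 430.6 CPM (-0.64, -0.75 to -0.52), and without it the sum of the complex IV members was at 5455 CPM in WT and 4781 in KO (-0.19). By summed complex, complex I differed by -0.06, complex II by 0.07, complex III by -0.25, complex IV by -0.23 and complex V by -0.10. The complex III value rested on Uqcrh, at 945.2 and 606.2 CPM (-0.64, -0.74 to -0.54). Without Uqcrh the sum of complex III was at 1343 and 1317 CPM (-0.03, -0.10 to 0.05).

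Other members past that difference in the Ms4a4b cluster belonged to complexes I, II, III and V. Sdhaf1 had the lowest ratio, at 74.3 CPM in WT and 42.4 in KO (log2 -0.81, -1.19 to -0.44), from 173 and 96 UMIs. Ndufb5 (-0.39), Ndufs8 (-0.36), Ndufv2 (-0.35) and Ndufb8 (-0.32) of complex I and Atp5e of complex V (-0.33) were also lower. Higher in KO were Ndufaf4 at 31.4 and 56.9 CPM (0.86, 0.44 to 1.30, from 73 and 129 UMIs), Sdha at 99.6 and 139.4 (0.48), Ndufb6 (0.38), Uqcrc1 (0.37) and Ndufs4 (0.35). Sdha and Sdhaf1, both of complex II, thus stood on opposite sides. In the same cluster the mitochondrially encoded subunits had 2 higher genes, mt-Nd3 and mt-Atp8, and no lower one among 9 measured, where 37.5% of all genes were higher and 8.67% lower.

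Genes of the same organelle outside the name rule were counted in cycling against Rag1 cells of WT for comparison, from lists drawn up with earlier results of these data known. As given above, 26.5% of all genes were higher and 49.8% lower in that comparison. Of 17 measured electron carriers and subunits outside the name rule, 11 were higher and 4 lower (median log2 0.60), with the ubiquinone synthesis genes Coq2 (1.45) and Coq7 (1.37) highest, Coq10a (-0.74) and Coq10b (-0.67) lowest and cytochrome c, Cycs, at 141.5 and 345.5 CPM (1.29). Of 13 TCA cycle enzymes 5 were higher and 1 lower (0.25), with fumarase Fh1 (1.99) and Suclg2 (1.44) highest, and Dlst (-0.57) and Ogdh (-0.24) lowest. Of 27 genes of mitochondrial protein import 16 were higher and none lower (0.42), led by Timm8a1 (2.57) and the chaperonin Hspd1 (2.08). Of 12 mitochondrial carriers and pores 5 were higher and 3 lower (0.19), and of 81 ribosomal protein genes 60 were higher and 1 lower (0.54). Other assembly factors had 5 of 29 higher and 12 lower (-0.13), both shares below those of all genes, from Uqcc2 (1.58) to Tmem186 (-1.23). Of 12 regulators of mitochondrial biogenesis 1 was higher and 5 lower (-0.24), again both below the shares of all genes, with the mitochondrial DNA packaging factor Tfam highest (0.50), the nuclear receptor Esrra lowest at 26.4 and 5.35 CPM (-2.29), and Nrf1 itself at 61.7 and 54.0 CPM (-0.19). With TMM factors the median of all genes in this comparison was 0.03 in place of -0.32, so these ratios are read beside that of all genes.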

How the data were processed

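Single-cell RNA-seq libraries of thymus cells, 1 WT and 1 KO, were analysed from the deposited matrix, whose values are raw UMI counts by gene and by cell, and the cell table with its clusters. Per the submitters' processing notes, the authors used Cell Ranger 3.0.2 with STAR, build mm10 and Seurat. Their methods state that cells with 200 to 6000 genes and under 50000 reads were kept. The matrix holds fewer cells than the study's text gives. Doublets were not called, and the deposited mitochondrial percentage, 0 in every cell, was not used but recomputed.

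UMIs were summed per library and cluster group and divided by all UMIs of the same cells (CPM). Log2 ratios had 0.5 added to both sums and exact 95% intervals, Poisson for a sum and conditional binomial for a ratio. With 1 library per group no test was run and no p-value is given, so depth sets precision only through these counting intervals. A gene was measured at 200 UMIs over both sides and called when the larger CPM exceeded the smaller by 25%. 1 member was counted with the others, but its own values are not reported here. The steps were tested on simulated data. Python 3.11.15, numpy 2.4.6, pandas 2.3.3, scipy 1.17.1, matplotlib 3.10.9, R 4.3.3, edgeR 4.0.16 (TMM factors) and DESeq2 1.42.0 (size factors, an alternative) were used.

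Members, cluster groups and gene lists were chosen with earlier results of these data known. The Rag1 group is the 5 clusters with most Rag1, and cycling clusters were found by Top2a, H1f5, Hmgb2 and Cenpf, or Top2a above 200 CPM. The Lars2 cluster (cluster 8) also passed that Top2a level and was kept as its own group. Named were the 4 highest and 4 lowest members of each comparison, fixed examples by role, tissue-restricted isoforms, the 3 members least like the common profile and up to 4 genes per list. Other members named were past that 25% between libraries, or were singled out after their values were seen. Counts of Uqcrh, Atp5l, Ndufb4 and Ndufb4c are uncertain, since near-identical copies can share reads. Alternatives were other scalings, filters, cell sets, folds and clusterings.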

Additional observations from a re-analysis of the deposited data

Results flagged for a closer look

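Log2 ratios of KO over WT had opposite signs in 2 cell groups, each with an interval for counting error clear of 0, for 9 of the 88 members measured in at least 2 groups (10.2%), where 459 of 7342 genes (6.25%) did. The difference was not tested in any of them, since each rests on 1 library per genotype. Here and in the shares below, the genes in general were not matched to the members in level. In 7 of the 9 the lower value was that of the Ms4a4b cluster. Atp5e stood at 0.171 in the Cd5 group and -0.328 in the Ms4a4b cluster, and Atp5j2 at 0.116 and -0.233. Values of the Rag1 group and the Ms4a4b cluster were 0.178 and -0.32 for Cox6c, 0.081 and -0.156 for Ndufa2, 0.065 and -0.256 for Ndufa4, and 0.073 and -0.184 for Uqcrb. Cox7b stood at 0.068 in cycling cells and -0.211 in the Ms4a4b cluster. Atp5g3 stood at 0.146 in the Itm2a cluster and -0.157 in the Cd5 group, and Ndufs3 at 0.333 in the Itm2a cluster and -0.184 in cycling cells.

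The same held for sums, again not tested. In Itm2a cells complex I stood at 0.054 but in Ms4a4b cells at -0.057, complex V at 0.04 and -0.099, and all members at 0.024 and -0.133. Complex IV stood at 0.019 in the Rag1 group and -0.233 in the Ms4a4b cluster. Ribosomal protein genes, depth and marker lists also differed between libraries in the Ms4a4b cluster, with the values given above.

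For 4 members a ratio between clusters had opposite signs in the 2 libraries, which was not tested. They were 1 of 86 members for the Itm2a cluster (1.16%, where 0.502% of genes did so) and 3 of 85 for the Ms4a4b cluster (3.53%, where 85 of 6782 genes, or 1.253%, did). Ndufa11 in the Itm2a cluster over the Rag1 group stood at 0.139 in KO and -0.147 in WT. In the Ms4a4b cluster over the Rag1 group, Atp5b stood at 0.086 in KO and -0.22 in WT, Atp5mpl at 0.148 in WT and -0.19 in KO, and Cox7a2l at 0.164 in WT and -0.258 in KO.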

How the results depend on the processing

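No paired analysis was possible because there was 1 library per genotype, and for the same reason no replicate could be left out. The direction with more members turned from lower to higher for Ms4a4b over Rag1 cells of WT under the reduced totals (those without ribosomal protein and mitochondrially encoded genes), TMM, DESeq2 and the all-gene median. It turned from higher to lower for KO over WT in Itm2a cells under the same 4 and thinning, and in Cd5 cells with DESeq2 (0 and 3) and with the mean over cells (0 and 2). Besides the medians given above, that of members changed sign relative to the median of all genes in Ms4a4b over Rag1 cells of WT (0.30) and in KO over WT of Itm2a cells (-0.09). For KO over WT it changed sign in Rag1 cells from 0.025 to -0.012 with TMM, -0.036 with DESeq2 and -0.013 relative to that median, and in cycling cells from -0.006 to 0.012 with the mean over cells and to 0.001 with the reduced totals and without the deepest 5% of cells. Counts of members that moved by over 1.5 times follow as higher and lower, each only where it moved. For cycling over Rag1 cells, TMM factors, DESeq2 size factors and ratios relative to the median of all genes each left 1 lower in WT and in KO; totals without ribosomal protein and mitochondrially encoded genes, and thinning to 1000 UMIs, each left 3 lower in WT; a fold of 1.5 gave 36 higher and 2 lower in WT, and 35 and 2 in KO. For Itm2a over Rag1 cells of WT, the reduced totals gave 38 and 7, TMM 7 lower, DESeq2 39 and 5, the fold of 1.5 10 and 4, the all-gene median 44 and 5, and the 3 largest Rag1 clusters 7 lower; in KO, DESeq2 gave 32 higher, the fold 8 and 4, and the all-gene median 33 higher. For Ms4a4b over Rag1 cells of WT, the reduced totals gave 19 and 8, TMM 20 and 7, DESeq2 32 and 5, the all-gene median 41 and 4, thinning 2 higher and the fold 8 lower; in KO, the reduced totals gave 5 and 16, TMM 19 lower, DESeq2 10 and 13, the fold 1 and 8, the all-gene median 10 and 10, and the 3 largest Rag1 clusters 20 lower. For KO over WT in Rag1 cells, TMM, DESeq2 and the all-gene median each left 1 higher and the fold 0. In Cd5 cells DESeq2, the mean over cells and the fold each left 0 higher; the fold and a minimum of 500 UMIs left 0 lower, and thinning or leaving out the deepest 5% of cells 1 lower. In cycling cells TMM, DESeq2, the all-gene median and the minimum of 500 each left 3 higher, thinning 2 and 1, and the fold 1 higher. In Itm2a cells the reduced totals gave 1 and 2, TMM 0 and 6, DESeq2 0 and 5, thinning 3 and 4, the all-gene median 0 and 4, clusters at resolution 1.8 and at resolution 2 both 3 and 2, the minimum of 500 UMIs 2 higher and the fold 0 higher. In Ms4a4b cells the reduced totals gave 1 and 32, TMM 1 and 43, DESeq2 1 and 45, the all-gene median 1 and 34, the fold 1 and 3, thinning 3 higher and the minimum of 500 UMIs 2 higher. The summed level over all clusters was 35159 CPM in WT and 34138 in KO with the reduced totals, 27196 and 27038 without cells over 10% mitochondrial UMIs, and 24333 and 24065 as a mean over cells; in the Ms4a4b cluster it was 33427 and 27059 with the reduced totals and 21751 and 19818 as a mean over cells. A minimum or a stricter fold leaves fewer genes by construction; the cause of other moves was not tested. The 4 larger cycling clusters in place of all 6, and leaving out cells with a haemoglobin UMI, were chosen after seeing the data and moved no count by over 1.5 times.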
